A study of Mus musculus with 24 samples.

Results

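The effect of an antibody to HER2 given on top of entinostat and an antibody to CTLA-4 was measured in 6 mammary tumours, out of 24 samples in the series. They were selected by their titles: 2 tumours of the arm with entinostat, anti-CTLA-4 and anti-HER2 (ENT+CTLA4+HER2) and 4 of the arm with entinostat and anti-CTLA-4 (ENT+CTLA4). The 4 tumours given entinostat with anti-PD-1 and anti-CTLA-4 (ENT+PD1+CTLA4) served as a further comparison. All mice were female neu-N animals on the FVB background, aged 7 to 8 weeks when 50000 cells of the NT2.5 mammary tumour line were placed in the mammary fat pad. Treatment began on day 3 and lasted 3 weeks. Entinostat was given by gavage each day at 5 mg/kg in every one of these arms. The antibodies were injected intraperitoneally at 100 µg per mouse, with 1 dose of anti-HER2 and 2 doses of anti-CTLA-4 or anti-PD-1 per week. Per the labels' protocol, isotype antibodies went to vehicle mice, and no isotype is named for the ENT+CTLA4 arm.

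Entinostat inhibits class I histone deacetylases, and blockade of CTLA-4 removes an inhibitory receptor from T cells. HER2 (Erbb2, called neu in the rat) is a receptor tyrosine kinase of the epidermal growth factor receptor family that drives growth of mammary epithelium. The neu-N mouse carries the rat neu gene under the mouse mammary tumour virus promoter and is tolerant to it, and NT2.5 cells come from a tumour of this mouse. An antibody bound to HER2 on a tumour cell can block signalling, and its constant part can engage Fc gamma receptors on natural killer (NK) cells, macrophages and neutrophils.

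RNA molecules were counted with a NanoString immune gene panel, in which a colour-coded probe reports each transcript without amplification. The deposited values, called normalized counts below, were scaled to a common housekeeping level by the authors. Of 750 endogenous genes, 601 had a normalized count of 20 or more in at least 4 of the 24 samples and were tested. The labels name whole tumours as the tissue, while the extraction protocol ends with isolation of immune cells. Epithelial transcripts were present in all 6 samples, with 5004 to 6921 normalized counts of Epcam and 1268 to 1671 of Cdh1. Nothing in the labels states that the samples of a group came from separate animals. The p-values measure the spread between samples within the 6 groups of the fit, 22 samples in all. Both groups ran on the same cartridge of 12 samples.

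Depth and background did not overlap between the groups. Recovered totals were 226863 and 311822 molecules in ENT+CTLA4+HER2 tumours, against 346883 to 483418 in ENT+CTLA4 tumours. The authors' scaling therefore multiplied counts by 1.70 and 1.29 in ENT+CTLA4+HER2, against 0.777 to 1.04 in ENT+CTLA4. The negative control probes had alike raw means, 4.88 ± 0.354 in ENT+CTLA4+HER2 against 5.00 ± 0.714 in ENT+CTLA4 (SD, n = 2 and 4). After scaling they stood at 7.24 ± 0.878 in ENT+CTLA4+HER2 against 4.69 ± 0.842 in ENT+CTLA4, a log2 difference of 0.63. An exact two-sided permutation test gave p = 0.0667 for that difference and for the totals, the smallest value that 15 arrangements allow. A gene is described as at background in a sample where it did not exceed the mean of that sample's scaled negative controls plus 2 SD. The median of the 601 log2 differences was 0.19 above 0, so list medians are read against that value. For the comparison with ENT+CTLA4, adjusted p-values with the negative controls subtracted are given for the genes that then no longer passed.

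The 2 ENT+CTLA4+HER2 tumours were unlike each other. S100a8, a calcium-binding alarmin of neutrophils, had 11838 normalized counts in replicate 1 and 1607 in replicate 2. The list of neutrophil and granulocytic genes had a median log2 difference from the ENT+CTLA4 mean of 0.93 in replicate 1 and 0.51 in replicate 2. Summed normalized counts of that list ran the other way, at 57895 in replicate 1 and 87621 in replicate 2, against 40907 to 59320 in ENT+CTLA4 tumours. In 85 of the 601 genes (14.1%) the pair lay more than 1 log2 unit apart, 33 of them higher in replicate 1 and 52 higher in replicate 2. The plot of the pair sets the samples against each other gene by gene.

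**Figure D1:**
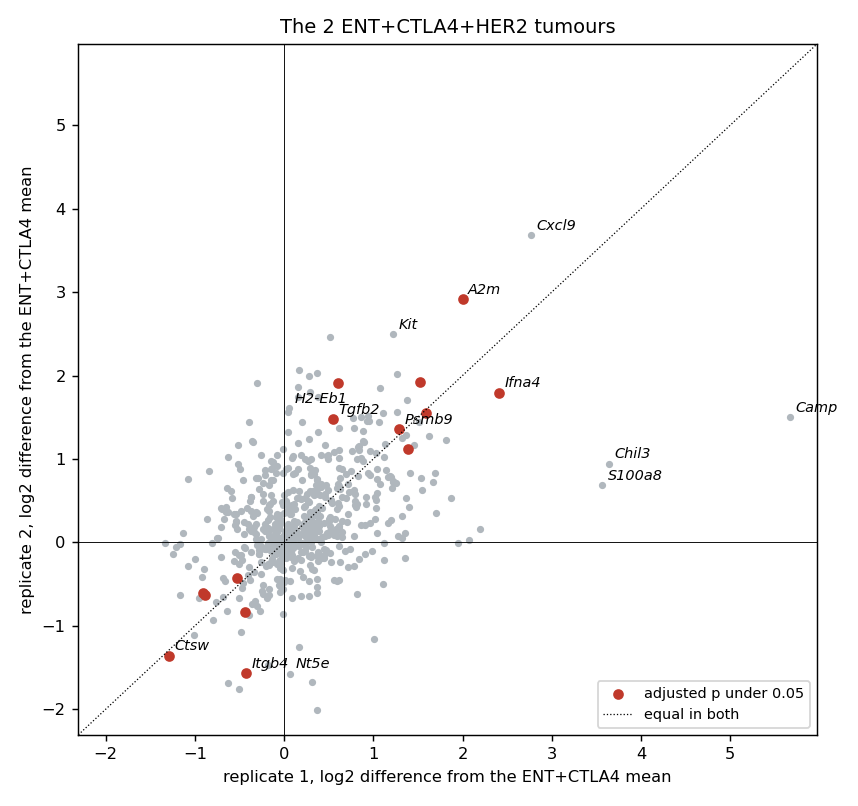
Each point is 1 of 601 genes. The x axis is the log2(value + 1) of ENT+CTLA4+HER2 replicate 1 minus the mean of the 4 ENT+CTLA4 tumours, the y axis the same for replicate 2, and the dotted line marks equality. Camp, Chil3 and S100a8 lie far to the right, being high in replicate 1, and the genes that passed the test (red) lie on the same side of 0 in both tumours.

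With anti-HER2 added, 14 of 601 genes passed the test (limma, Benjamini-Hochberg adjusted p under 0.05), which is 2.33% of those tested. Transcripts of NK receptors and their signalling (Cd160, Sh2d1b1, Klrb1), of an immunoproteasome subunit (Psmb9), of an alpha interferon (Ifna4), and of A2m, Csf3 and Tgfb2 were higher, 8 genes or 1.33%. Ctsw, Itgb4, Mavs, Il34, St6gal1 and Itgb3 were lower, 6 genes or 0.998%. The higher genes were mostly weak and the lower genes were not. Mean normalized counts in ENT+CTLA4 ran from 5.91 to 95.4 for the 8 higher genes and from 94.8 to 1436 for the 6 lower genes. Both ENT+CTLA4+HER2 tumours lay outside the range of the 4 ENT+CTLA4 tumours in all 14. Among all genes tested, 139 (23.1%) were higher and 39 (6.49%) lower without overlap, 116 (19.3%) had an unadjusted p under 0.05 and 410 (68.2%) had a positive log2 change. With the spread taken from the 6 compared samples alone, or from 10 samples of their cartridge, no gene passed. The same held when ENT+CTLA4 replicate 5 or replicate 6 was left out, while 6 passed without replicate 2 and 21 without replicate 1. Without ENT+CTLA4+HER2 replicate 1, 23 genes passed, of which 7 were among the 14. Without ENT+CTLA4+HER2 replicate 2, 6 passed, of which only Mavs was among the 14 and the other 5 were Camp, Chil3, Fpr2, Ppbp and S100a8, genes found in neutrophils and platelets. In these last fits the lone sample was assumed to vary like the other groups.

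**Figure D2:**
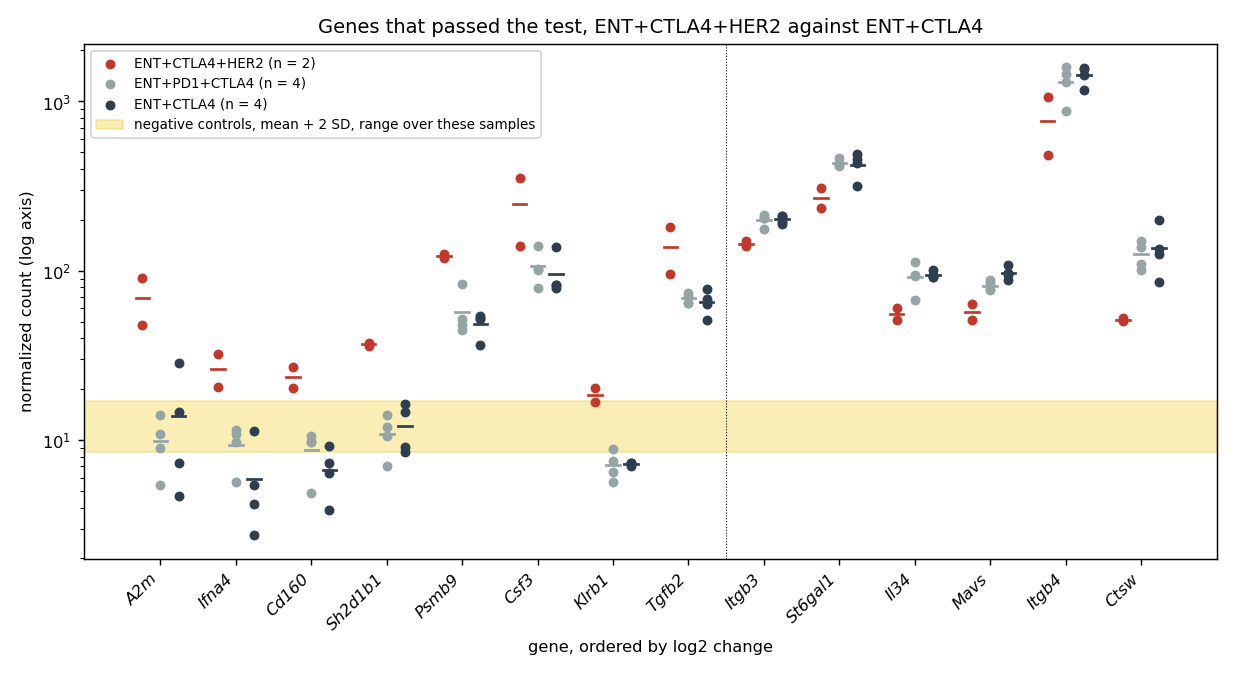
Normalized counts (log axis) of the 14 genes that passed the test, ordered by log2 change. Points are tumours, horizontal bars are group means, and the yellow band spans the negative control mean plus 2 SD over the 10 samples. In each gene the red ENT+CTLA4+HER2 points lie outside the range of the ENT+CTLA4 points, and for Klrb1 all ENT+CTLA4 points lie below the band.

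**Figure D3:**
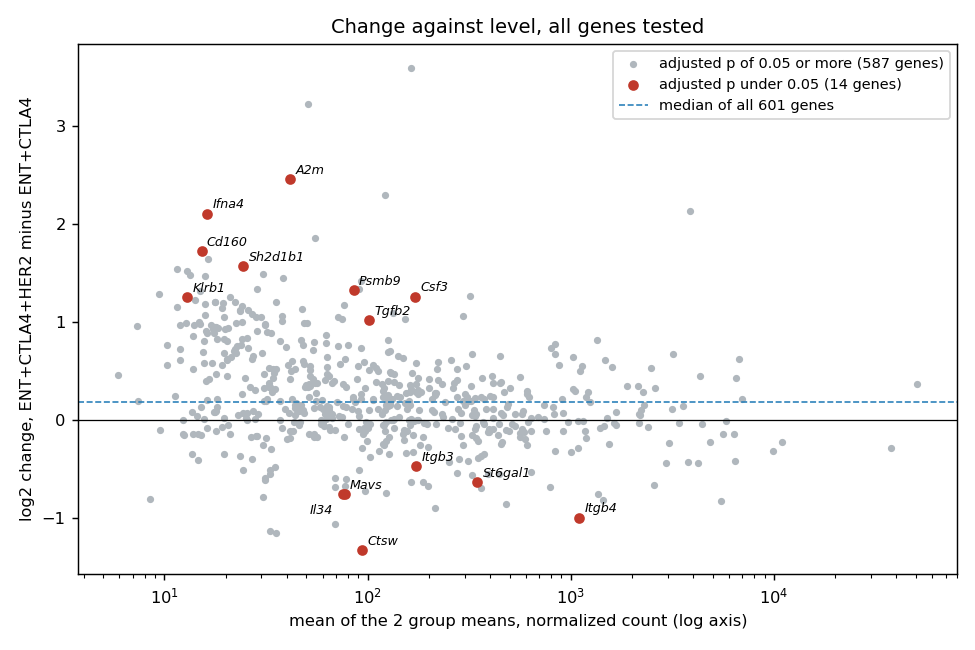
The log2 change with anti-HER2 (y axis) against the mean of the 2 group means in normalized counts (x axis, log) for 601 genes. Red points passed the test, the dashed line is the median of all genes at 0.19, and weak genes at the left scatter mostly above it.

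Of the 8 higher genes, 3 encode receptors or an adaptor of NK cells. Cd160, a receptor for HVEM and MHC class I on NK cells and cytotoxic T cells, had 20.4 and 27.1 normalized counts in ENT+CTLA4+HER2 tumours, against 9.23, 7.29, 6.39 and 3.88 in ENT+CTLA4 tumours. The groups did not overlap, and the log2 change was 1.72 ± 0.37 (SE, adjusted p = 0.0238). Sh2d1b1, which encodes the adaptor EAT-2 of SLAM family receptors, had 37.4 and 36.1 in ENT+CTLA4+HER2, against 16.4, 14.6, 9.12 and 8.54 in ENT+CTLA4, a log2 change of 1.57 ± 0.35 (adjusted p = 0.0248). Klrb1, a C-type lectin receptor of the NK gene complex, had 20.4 and 16.8 in ENT+CTLA4+HER2, against 7.18, 7.29, 7.30 and 6.99 in ENT+CTLA4, a log2 change of 1.25 ± 0.32 (adjusted p = 0.0467). These are small numbers of molecules. The recovered counts behind them were 12 and 13 in ENT+CTLA4+HER2, against 7, 7, 8 and 9 in ENT+CTLA4 for Klrb1. For Cd160 they were 12 and 21 in ENT+CTLA4+HER2, against 9, 7, 7 and 5 in ENT+CTLA4. For Sh2d1b1 they were 22 and 28 in ENT+CTLA4+HER2, against 16, 14, 10 and 11 in ENT+CTLA4. Klrb1 was at background in all 4 ENT+CTLA4 tumours, Cd160 in 3 and Sh2d1b1 in 2, so the size of these differences is not measured. With the negative control mean subtracted, Cd160 passed (adjusted p = 0.0405, limma) and Sh2d1b1 and Klrb1 did not (adjusted p = 0.0649 and 0.0859). Fewer or more cells of a type and less or more RNA per cell cannot be told apart in whole tumours, here and for every gene below.

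Of 13 NK genes outside the Ly49 family that were tested, 3 were higher and 0 lower by limma, against 1.33% higher and 0.998% lower of all genes. Their median log2 change was 0.83, against 0.19 over all genes, and 10 of 13 were positive, against 68.2% of all genes. Klrc1, which encodes NKG2A, had 27.2 and 37.4 normalized counts in ENT+CTLA4+HER2, against 11.3, 14.6, 11.9 and 20.97 in ENT+CTLA4 and did not pass (adjusted p = 0.208). Klrk1, which encodes the activating receptor NKG2D, had 20.4 and 29.7 in ENT+CTLA4+HER2, against 15.4, 11.5, 9.12 and 20.2 in ENT+CTLA4 (adjusted p = 0.276). Ncr1, which encodes the NK-defining receptor NKp46, had 10.2 and 12.9 in ENT+CTLA4+HER2, at background in both tumours, against 14.4, 13.5, 8.21 and 16.3 in ENT+CTLA4, with a log2 change of −0.14 ± 0.39 (adjusted p = 0.945). The excess of the list's median over that of all genes was 0.64 as deposited, 0.83 after the negative control mean was subtracted and 0.22 after quantile normalization. Subtraction leaves small remainders in weak genes, so the rise to 0.83 does not show an excess free of background. The scaled negative controls had a log2 difference of 0.63. That value has no added 1 and is not taken relative to all genes, so it is not on the scale of these excesses. How much of the excess is background was not tested.

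Ly49 receptors, the mouse counterparts of human KIR receptors for MHC class I, had 7 members tested of 12 measured. None passed in limma (DESeq2 called Klra2), and 4 had an unadjusted p under 0.05, against 19.3% of all genes. All 7 were positive with a median log2 change of 1.15, against 68.2% and 0.19 over all genes. The median depended on level. It was 1.25 over the 5 tested genes at background in all 4 ENT+CTLA4 tumours, Klra6 among them, and 0.12 over the 508 above background in all 4. Klra2 had the smallest adjusted p of the 7 (adjusted p = 0.0584, limma), at a log2 change of 1.42 ± 0.38. It had 119 and 146 normalized counts in ENT+CTLA4+HER2, against 95.4, 47.9, 32.9 and 37.3 in ENT+CTLA4. Klra6 and Klra5 had log2 changes of 1.54 ± 0.47 and 1.47 ± 0.45 (adjusted p = 0.0841 for each) but were at background in 4 and 3 of the ENT+CTLA4 tumours. Klra4, Klra17, Klra20 and Klra7 had log2 changes of 0.64 to 1.15, and Klra1, Klra3, Klra15, Klra21 and Klra27 did not reach the filter. Ly49 genes are close paralogs, so probes may share molecules. The median's excess over all genes was 0.97 as deposited, 1.29 with the negative control mean subtracted and 0.30 under quantile normalization. As for the NK list, the rise on subtraction does not show an excess free of background.

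Genes for presentation on MHC class I had positive log2 changes in 15 of 16 tested, against 68.2% of all genes, and 1 passed in limma, against 2.33%. Psmb9, a subunit that replaces its constitutive counterpart in the immunoproteasome, had 119 and 125 normalized counts in ENT+CTLA4+HER2 tumours, against 52.3, 36.5, 52.01 and 54.4 in ENT+CTLA4 tumours. Its level was alike in both tumours with anti-HER2 and above all 4 others, with a log2 change of 1.32 ± 0.31 (adjusted p = 0.0341). Before scaling the groups touched, with recovered counts of 70 and 97 in ENT+CTLA4+HER2, against 51, 35, 57 and 70 in ENT+CTLA4, and with the negative control mean subtracted the adjusted p was 0.0598. Its partner subunit Psmb8 had 856 and 1251 in ENT+CTLA4+HER2, against 679, 529, 565 and 667 in ENT+CTLA4, which did not overlap but missed the threshold in limma (log2 change 0.77 ± 0.24, adjusted p = 0.0853) and passed in edgeR and DESeq2. The third immunoproteasome subunit, Psmb10, had 54.4 and 68.4 in ENT+CTLA4+HER2, against 53.4, 41.7, 49.3 and 38.8 in ENT+CTLA4 (adjusted p = 0.388). The constitutive subunit Psmb7 had 853 and 1069 in ENT+CTLA4+HER2, against 952, 992, 1001 and 937 in ENT+CTLA4, a log2 change of −0.02 ± 0.12.

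The classical class I chain H2-K1 had 1477 and 2115 normalized counts in ENT+CTLA4+HER2, against 1193, 1040.5, 1109.5 and 1314 in ENT+CTLA4 (log2 change 0.61 ± 0.22, adjusted p = 0.127). Its companion H2-D1 had 4426 and 5545 in ENT+CTLA4+HER2, against 3705, 3542, 3228 and 4074 in ENT+CTLA4 (log2 change 0.45 ± 0.26, adjusted p = 0.384). Tap1, a subunit of the transporter that loads peptides into the endoplasmic reticulum, had 151 and 168 in ENT+CTLA4+HER2, against 113, 88.5, 88.5 and 103 in ENT+CTLA4 (log2 change 0.70 ± 0.33, adjusted p = 0.247). Over the list, 10 of 16 genes were higher without overlap, against 23.1% of all genes, and the median log2 change was 0.54, against 0.19. The excess over all genes stayed between 0.36 and 0.44 under the other scalings and in edgeR and DESeq2. Tapbp, which tethers the empty class I molecule to the transporter, lay at a log2 change of 0.05 ± 0.11.

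Interferon transcripts themselves lay near the negative controls, and 1 of 5 tested genes for type I interferons and interferon receptors passed in limma, against 2.33% of all genes. The median log2 change of these 5 was 0.11, below the 0.19 of all genes. Ifna4, a type I interferon, had 32.3 and 20.7 normalized counts in ENT+CTLA4+HER2, against 11.3, 4.17, 2.74 and 5.44 in ENT+CTLA4, a log2 change of 2.10 ± 0.55 (adjusted p = 0.0473). The recovered counts were 19 and 16 in ENT+CTLA4+HER2, against 11, 4, 3 and 7 in ENT+CTLA4, and 3 of the 4 ENT+CTLA4 tumours were at background, so the size is not measured. With the negative control mean subtracted Ifna4 did not pass (adjusted p = 0.148, limma). Ifna1, a near-identical paralog whose probe may share molecules with it, had 23.8 and 15.5 in ENT+CTLA4+HER2, against 8.21, 6.25, 3.65 and 6.99 in ENT+CTLA4 and missed the threshold (adjusted p = 0.0658). Ifng, the type II interferon of NK and T cells, had 13.6 and 12.9 in ENT+CTLA4+HER2, at background in both, against 10.3, 6.25, 4.56 and 1.55 in ENT+CTLA4 (adjusted p = 0.23). The receptor chains Ifnar1, Ifnar2 and Ifngr1 had log2 changes of −0.12 to 0.11. Ifna2, Ifnb1 and Ifnl2 did not reach the filter.

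None of 24 interferon-stimulated genes passed (limma), while 11 had an unadjusted p under 0.05, against 19.3% of all genes. Higher without overlap were 13, against 23.1%, and positive were 21, against 68.2%. Their median log2 change was 0.52, against 0.19 over all genes. Rsad2, which encodes the antiviral enzyme viperin, had 49.3 and 33.6 normalized counts in ENT+CTLA4+HER2, against 30.8, 19.8, 17.3 and 15.5 in ENT+CTLA4 (log2 change 0.98 ± 0.29, adjusted p = 0.0815). Ifit1, which encodes a protein that binds foreign RNA caps, had 28.9 and 36.1 in ENT+CTLA4+HER2, against 16.4, 14.6, 13.7 and 18.6 in ENT+CTLA4 (log2 change 0.99 ± 0.31, adjusted p = 0.0849). In both genes the tumours with anti-HER2 were the highest of the 6. Ifit3, a partner of Ifit1, had a log2 change of 1.47 ± 0.51 (adjusted p = 0.115) and Cmpk2 1.33 ± 0.42 (adjusted p = 0.0853). Isg20, an exonuclease, had 1096 and 276 in ENT+CTLA4+HER2, against 782, 1038, 990.0 and 764 in ENT+CTLA4, low in replicate 2 alone.

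Promoters are shown for Ifit1 and Rsad2, as the interferon-stimulated genes described in full, and for Psmb9, the antigen presentation gene that passed. The windows run from 250 bases before to 50 bases after the annotated start, in RefSeq on GRCm38.p6, 5′ to 3′ on the strand of the gene. They lie at chr19:34640639-34640938 (plus strand) for Ifit1, chr12:26456403-26456702 (minus strand) for Rsad2 and chr17:34187281-34187580 (minus strand) for Psmb9. Capitals mark matches to the interferon-stimulated response element, searched as 2 copies of GAAA with any 2 bases between them, on both strands.
Ifit1: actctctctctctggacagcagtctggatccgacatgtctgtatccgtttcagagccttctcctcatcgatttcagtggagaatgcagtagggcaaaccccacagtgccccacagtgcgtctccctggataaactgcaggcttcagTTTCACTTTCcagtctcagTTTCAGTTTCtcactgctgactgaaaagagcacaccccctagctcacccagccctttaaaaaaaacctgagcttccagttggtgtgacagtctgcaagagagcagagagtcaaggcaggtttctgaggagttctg
Rsad2: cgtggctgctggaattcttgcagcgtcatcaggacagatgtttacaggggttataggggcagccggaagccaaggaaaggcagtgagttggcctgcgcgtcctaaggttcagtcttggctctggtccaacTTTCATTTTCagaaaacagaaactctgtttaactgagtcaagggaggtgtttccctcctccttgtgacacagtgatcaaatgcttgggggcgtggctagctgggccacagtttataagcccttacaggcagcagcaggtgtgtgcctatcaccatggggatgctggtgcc
Psmb9: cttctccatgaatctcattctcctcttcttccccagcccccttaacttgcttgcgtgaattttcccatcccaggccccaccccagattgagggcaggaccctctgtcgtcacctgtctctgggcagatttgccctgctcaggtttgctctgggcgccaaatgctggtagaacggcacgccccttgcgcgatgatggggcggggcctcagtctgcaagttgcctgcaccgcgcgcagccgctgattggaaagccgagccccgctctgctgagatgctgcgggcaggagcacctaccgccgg
The Ifit1 window held 2 matches, which began 104 and 85 bases before the start, and the Rsad2 window held 1, which began 120 bases before it. Of 19 interferon-stimulated genes with a promoter in the table, 11 (57.9%) held a match, compared with 38 of 431 tested genes (8.82%) and 3.99% of all 27025 genes with a promoter. The Psmb9 window held no match to these letters, to TTCNNNGAA (the gamma-activated sequence) or to an NF-kB site (GGGA, any base, TTTCC), searched likewise on both strands. Psmb9 and Tap1 are transcribed in opposite directions, and their windows share 275 bases.

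The list of chemokines and factors induced by interferon gamma, which also holds the chemokine receptor Cxcr3, had 13 genes tested. Psmb9 alone passed in limma, against 2.33% of all genes. In this list 9 were higher without overlap, against 23.1% of all genes, 12 were positive, against 68.2%, and the median log2 change was 0.70, against 0.19. Cxcl9, a ligand of CXCR3 that recruits T and NK cells, had the largest difference of the list. It had 61.2 and 116 normalized counts in ENT+CTLA4+HER2, against 32.8, 6.25, 1.00 and 13.2 in ENT+CTLA4, where it was at the floor of the table in replicate 5 and at background in 2 of the 4 tumours. The log2 change was 3.22 ± 0.88 and just missed the threshold in limma (adjusted p = 0.0584), while edgeR and DESeq2 called it. Cxcl10, a second CXCR3 ligand, had 49.3 and 81.3 in ENT+CTLA4+HER2, against 38.99, 15.6, 33.8 and 31.1 in ENT+CTLA4 (adjusted p = 0.177), and Cxcl11 had a log2 change of 1.25 ± 0.50. Irf1, a transcription factor induced by interferon gamma, had 782 and 1219 in ENT+CTLA4+HER2, against 724, 471, 559 and 629 in ENT+CTLA4 (log2 change 0.73 ± 0.21, adjusted p = 0.0658). Cxcr3, Irf8, Ciita, Ccl5, Ido1 and Socs1 had log2 changes of −0.10 to 0.82, and Gbp2b did not reach the filter. Psmb9 and Tap1 also belong to the antigen presentation list above. Ccl5 and Ciita were not separated between the groups.

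A2m, which encodes the protease inhibitor alpha-2-macroglobulin, had the largest log2 change of the genes that passed. It had 47.6 and 90.4 normalized counts in ENT+CTLA4+HER2, against 28.7, 14.6, 7.30 and 4.66 in ENT+CTLA4, a log2 change of 2.46 ± 0.53 (adjusted p = 0.0238). The recovered counts were 28 and 70 in ENT+CTLA4+HER2, against 28, 14, 8 and 6 in ENT+CTLA4, so before scaling the groups touched at 28, and 2 of the ENT+CTLA4 tumours were at background. With the negative control mean subtracted A2m did not pass (adjusted p = 0.0991, limma). Tgfb2, a transforming growth factor beta, had 95.2 and 182 in ENT+CTLA4+HER2, against 63.6, 78.1, 68.4 and 51.3 in ENT+CTLA4, a log2 change of 1.02 ± 0.22 (adjusted p = 0.0238). Its recovered counts overlapped, at 56 and 141 in ENT+CTLA4+HER2, against 62, 75, 75 and 66 in ENT+CTLA4, so that before scaling replicate 1 was the lowest of the 6. Csf3 encodes G-CSF, the growth factor of neutrophils. It had 141 and 352 in ENT+CTLA4+HER2, against 137, 82.3, 79.4 and 82.3 in ENT+CTLA4, a log2 change of 1.26 ± 0.32 (adjusted p = 0.0467). Its recovered counts overlapped too, at 83 and 273 in ENT+CTLA4+HER2, against 134, 79, 87 and 106 in ENT+CTLA4. With the negative control mean subtracted the adjusted p was 0.0504 for Tgfb2 and 0.0693 for Csf3. All 3 were higher in replicate 2 than in replicate 1, and replicate 1 lay close to the highest ENT+CTLA4 tumour in Csf3.

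Genes of neutrophils and granulocytic cells had 18 members tested, of which Csf3 passed in limma, against 2.33% of all genes, and 17 were positive, against 68.2%. Their median log2 change was 0.70, against 0.19 over all genes, and 7 were higher without overlap, against 23.1%. Csf3 encodes the growth factor of these cells and was higher in replicate 2, at 352 normalized counts, than in replicate 1, at 141. The next 3 genes ran the other way between the replicates. S100a8 had 11838 and 1607 normalized counts in ENT+CTLA4+HER2, against 989, 961, 669 and 1555 in ENT+CTLA4 (log2 change 2.13 ± 0.66, adjusted p = 0.0853). Camp, which encodes the granule peptide cathelicidin, had 599.8 and 32.3 in ENT+CTLA4+HER2, against 9.23, 6.25, 10.04 and 22.5 in ENT+CTLA4 (adjusted p = 0.0903). Chil3, a chitinase-like protein from the list of suppressive myeloid cells, had 374 and 56.8 in ENT+CTLA4+HER2, against 34.9, 25.00, 29.2 and 27.96 in ENT+CTLA4 (adjusted p = 0.0878). In these 3 genes replicate 1 was far above every other tumour and replicate 2 closer to the ENT+CTLA4 range. S100a8 and Chil3 passed in edgeR and DESeq2, and Camp in edgeR. Csf3r, the receptor for G-CSF, had 241 and 128 in ENT+CTLA4+HER2, against 105, 85.4, 82.1 and 62.1 in ENT+CTLA4, and Cxcr2, the chemokine receptor of neutrophils, had 304 and 119 in ENT+CTLA4+HER2, against 111, 97.9, 70.3 and 97.9 in ENT+CTLA4. Neither passed (adjusted p = 0.103 and 0.14). Ccl3, a macrophage inflammatory protein from the chemokine list, had 588 and 321 in ENT+CTLA4+HER2, against 179, 157, 189 and 202 in ENT+CTLA4 and was the first gene outside the threshold in limma (log2 change 1.26 ± 0.34, adjusted p = 0.0538).

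Among genes of myeloid function, none of the following passed in limma. Bcl6, a repressor active in germinal centre and myeloid cells, had 168 and 145 normalized counts in ENT+CTLA4+HER2, against 106, 84.4, 99.5 and 97.1 in ENT+CTLA4 (adjusted p = 0.0602). Cebpb, a factor of myeloid differentiation, had 1981 and 1810.1 in ENT+CTLA4+HER2, against 1506, 1332, 1231 and 1169.7 in ENT+CTLA4 (adjusted p = 0.0642). Nos2, inducible nitric oxide synthase, had 45.9 and 37.4 in ENT+CTLA4+HER2, against 25.6, 27.1, 17.3 and 18.6 in ENT+CTLA4 (adjusted p = 0.0815). Arg1, arginase 1, had 282 and 103 in ENT+CTLA4+HER2, against 139.6, 128, 248 and 144 in ENT+CTLA4, a log2 change of 0.10 ± 0.50.

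Of the genes that fell, Ctsw moved most. It encodes cathepsin W, a protease of cytotoxic lymphocytes, and had 52.7 and 50.4 normalized counts in ENT+CTLA4+HER2, against 86.2, 134, 126 and 199 in ENT+CTLA4. The pair with anti-HER2 was nearly equal and below all 4 others, with a log2 change of −1.32 ± 0.27 (adjusted p = 0.0238). The other tested genes of the cytotoxic list ran the opposite way without passing. Gzma, granzyme A, had 28.9 and 25.8 in ENT+CTLA4+HER2, against 21.6, 14.6, 14.6 and 15.5 in ENT+CTLA4 (adjusted p = 0.315), and Tnfsf10, the death ligand TRAIL, had 66.3 and 65.8 in ENT+CTLA4+HER2, against 48.2, 26.04, 49.3 and 41.2 in ENT+CTLA4 (adjusted p = 0.176). Cd8a, Cd8b1, Gzmb, Gzmk, Gzmm, Prf1, Fasl, Eomes and Tbx21 did not reach the filter. They had 1.00 to 27.2 normalized counts over the 6 tumours, and no difference was detectable for Cd8a, Gzmb or Prf1 at this depth.

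T cell receptor and coreceptor genes gave no call in 14 tested, by limma, against 2.33% of all genes. Of these, 0 had an unadjusted p under 0.05, against 19.3%. The median log2 change was 0.78, against 0.19 over all genes, with 12 of 14 positive, against 68.2%. The excess over all genes of 0.59 turned to −0.09 in edgeR and −0.06 in DESeq2. Cd3e, a chain of the T cell receptor complex, had 16.99 and 50.4 normalized counts in ENT+CTLA4+HER2, against 12.3, 8.33, 4.56 and 66.8 in ENT+CTLA4, where replicate 6 exceeded both tumours with anti-HER2. Cd4 had 10.2 and 20.7 in ENT+CTLA4+HER2, against 7.18, 4.17, 2.74 and 34.2 in ENT+CTLA4 (log2 change 0.85 ± 0.97). Tcf7, a factor of naive and memory T cells, had 74.8 and 65.8 in ENT+CTLA4+HER2, against 71.8, 109, 129 and 183 in ENT+CTLA4 (log2 change −0.73 ± 0.40). Foxp3, the factor of regulatory T cells, did not reach the filter and had 4.17 to 15.5 normalized counts over the 6 tumours.

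Among checkpoint genes, 0 of 14 passed (limma), 5 had an unadjusted p under 0.05, against 19.3% of all genes, and the median log2 change was 0.04, against 0.19. Cd274, which encodes PD-L1, had 133 and 125 normalized counts in ENT+CTLA4+HER2, against 70.8, 42.7, 39.2 and 55.1 in ENT+CTLA4 without overlap (log2 change 1.33 ± 0.53, adjusted p = 0.172). Tigit, an inhibitory receptor of NK and T cells, had a log2 change of 1.19 ± 0.45 (adjusted p = 0.152). Pdcd1lg2, which encodes PD-L2, had 18.7 and 32.3 in ENT+CTLA4+HER2, against 7.18, 7.29, 5.47 and 9.32 in ENT+CTLA4 (adjusted p = 0.115). Ctla4, whose product the shared antibody binds, had 40.8 and 58.1 in ENT+CTLA4+HER2, against 17.4, 18.8, 18.2 and 30.3 in ENT+CTLA4 (log2 change 1.20 ± 0.91, adjusted p = 0.546). Cd276, the B7-H3 ligand also found on tumour cells, had 241 and 243 in ENT+CTLA4+HER2, against 282, 312, 351 and 332 in ENT+CTLA4, lower without overlap (adjusted p = 0.177). Lag3 had 39.1 and 68.4 in ENT+CTLA4+HER2, against 89.3, 88.5, 82.1 and 75.3 in ENT+CTLA4, also lower without overlap (adjusted p = 0.246).

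The list of HER2 and epithelial tumour genes gave 1 call in 15 by limma, Itgb4, against 2.33% of all genes. The list also holds genes of other cells, such as Cdh5 of endothelium and Spp1 and Cd44 of immune and stromal cells. Itgb4 encodes the integrin beta 4 subunit, which anchors epithelial cells in hemidesmosomes. It had 1062 and 480.3 normalized counts in ENT+CTLA4+HER2, against 1168, 1560.2, 1586 and 1429.9 in ENT+CTLA4, a log2 change of −0.996 ± 0.26 (adjusted p = 0.0467). Replicate 2 was far below the ENT+CTLA4 range and replicate 1 just under its lowest tumour. Erbb2, which encodes HER2, had 435 and 581 in ENT+CTLA4+HER2, against 597, 478, 428 and 364 in ENT+CTLA4, with overlapping groups and a log2 change of 0.13 ± 0.21 (adjusted p = 0.85). Hdac3, a target of entinostat and a housekeeping row of the panel that was not tested, had 421 and 438 in ENT+CTLA4+HER2, against 481, 458, 448 and 352 in ENT+CTLA4. The panel is designed on mouse transcripts, and whether its Erbb2 probe reads the rat transgene was not tested. Egfr, a partner receptor of HER2, had 42.5 and 49.1 in ENT+CTLA4+HER2, against 46.2, 35.4, 57.5 and 48.9 in ENT+CTLA4, a log2 change of −0.02 ± 0.34. Epcam, an epithelial adhesion molecule, had 6624 and 5004 in ENT+CTLA4+HER2, against 5737, 6921, 5688 and 5045 in ENT+CTLA4, a log2 change of −0.01 ± 0.19. Cdh1, which encodes E-cadherin, had 1602 and 1268 in ENT+CTLA4+HER2, against 1332, 1546, 1671 and 1409 in ENT+CTLA4, a log2 change of −0.06 ± 0.17. Ceacam1, an adhesion molecule of epithelium and granulocytes, had a log2 change of 0.81 ± 0.28 (adjusted p = 0.112). Itga6, Cd9, Muc1, Tfrc, Spp1, Cdh5, Dmbt1 and Cd44 had log2 changes of −0.28 to 0.34.

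The other 4 genes that fell came from different processes and were well above background. Mavs, the mitochondrial adaptor of cytosolic RNA sensors, had 50.98 and 63.3 normalized counts in ENT+CTLA4+HER2, against 108, 94.8, 96.7 and 88.5 in ENT+CTLA4, a log2 change of −0.76 ± 0.16 (adjusted p = 0.0238). Il34, a ligand of the CSF1 receptor, had 50.98 and 60.7 in ENT+CTLA4+HER2, against 101, 91.7, 92.2 and 94.8 in ENT+CTLA4, a log2 change of −0.76 ± 0.18 (adjusted p = 0.0333). Within each group the tumours were alike in both genes, and the groups were clearly apart. St6gal1, a sialyltransferase that modifies immunoglobulins and integrins, had 308 and 234 in ENT+CTLA4+HER2, against 317, 430.2, 489 and 455 in ENT+CTLA4, a log2 change of −0.64 ± 0.16 (adjusted p = 0.0467). Itgb3, the integrin beta 3 subunit of platelets and endothelium, had 139 and 149.8 in ENT+CTLA4+HER2, against 189.8, 209, 211 and 195 in ENT+CTLA4, a log2 change of −0.47 ± 0.12 (adjusted p = 0.0467). It was the smallest change to pass. The recovered counts of all 6 lower genes were apart as well. For Mavs they were 30 and 49 in ENT+CTLA4+HER2, against 105, 91, 106 and 114 in ENT+CTLA4. This is no separate test, since the scaling factors were larger in ENT+CTLA4+HER2. Genes lower without overlap after scaling must then be lower before it.

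Fc receptors, through which an antibody to HER2 can engage immune cells, gave no call in 10 genes tested (limma), and 1 had an unadjusted p under 0.05, against 19.3% of all genes. Their median log2 change was 0.20, against 0.19 over all genes. Fcgr4, the activating receptor for mouse IgG2a, had 133 and 132 normalized counts in ENT+CTLA4+HER2, against 104, 96.9, 115 and 94.8 in ENT+CTLA4 (log2 change 0.37 ± 0.29, adjusted p = 0.56). Fcgr1, the high-affinity receptor, had 165 and 156 in ENT+CTLA4+HER2, against 107, 114, 133 and 149.9 in ENT+CTLA4 (log2 change 0.36 ± 0.33, adjusted p = 0.668). Both were higher without overlap, as were 23.1% of all genes. Fcgr3, the activating receptor found on NK cells, had 209 and 177 in ENT+CTLA4+HER2, against 198, 171, 189.8 and 235 in ENT+CTLA4 (log2 change −0.04 ± 0.43). Fcgr2b, the inhibitory receptor, had 754 and 1019 in ENT+CTLA4+HER2, against 901, 886, 1301 and 1421 in ENT+CTLA4 (log2 change −0.33 ± 0.52). Fcer1g, the signalling chain these receptors share, had 440.1 and 368 in ENT+CTLA4+HER2, against 357, 311, 340.3 and 384 in ENT+CTLA4 (log2 change 0.21 ± 0.30). Fcer1a, a chain of the IgE receptor, had a log2 change of 0.99 ± 0.42 (adjusted p = 0.191), and Lyn, Syk, Inpp5d and Btk had 0.10 to 0.23.

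Macrophage and monocyte genes gave no call in 25 tested (limma), against 2.33% of all genes, and 0 had an unadjusted p under 0.05, against 19.3%. Of the 25, 12 were positive, against 68.2% of all genes, and 13 were negative. Their median log2 change was −0.02, against 0.19 over all genes, and 18 of them lay below the all-gene median. Cd68, a lysosomal protein of macrophages, had 452 and 414 normalized counts in ENT+CTLA4+HER2, against 373, 307, 374 and 419 in ENT+CTLA4. Mrc1, the mannose receptor, had 112 and 163 in ENT+CTLA4+HER2, against 210.3, 115, 318 and 525 in ENT+CTLA4 (log2 change −0.90 ± 0.85, adjusted p = 0.673). The scavenger receptor Cd163 had 28.9 and 11.6 in ENT+CTLA4+HER2, against 30.8, 21.9, 65.7 and 66.02 in ENT+CTLA4 (adjusted p = 0.369). MHC class II and antigen processing genes also gave no call in 12 tested (limma), against 2.33% of all genes. Of these, 0 had an unadjusted p under 0.05, against 19.3%, and 11 were positive, against 68.2%. Their median lay 0.09 above the ENT+CTLA4 mean in replicate 1 and 0.88 above it in replicate 2. H2-Ab1 had 2595 and 5314 in ENT+CTLA4+HER2, against 3215, 2176, 1741 and 2437 in ENT+CTLA4, so that replicate 2 alone lay above the others. H2-Eb1, Cd74, H2-Dma, Ctss, H2-Ob, Ciita, H2-Ea-ps, H2-Aa, Cd40, Ctsl and H2-DMb2 had log2 changes of −0.03 to 0.83.

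Mast cell and eosinophil genes gave no call in 6 tested (limma), and 4 had an unadjusted p under 0.05, in both directions, against 19.3% of all genes. Kit, the stem cell factor receptor, had 49.3 and 120.1 normalized counts in ENT+CTLA4+HER2, against 56.4, 9.37, 17.3 and 18.6 in ENT+CTLA4 (adjusted p = 0.0815). Ptgdr2, a prostaglandin receptor of eosinophils, had 23.8 and 19.4 in ENT+CTLA4+HER2, against 8.21, 5.21, 8.21 and 11.7 in ENT+CTLA4 (adjusted p = 0.0834). Tpsab1, a mast cell tryptase, had 45.9 and 42.6 in ENT+CTLA4+HER2, against 82.1, 111, 74.8 and 109.5 in ENT+CTLA4, lower without overlap (adjusted p = 0.125 in limma, and called by DESeq2). Gpr44 and Cma1 had log2 changes of −0.19 to 0.70, and Ms4a2, Ccr3, Prg2 and Il5ra did not reach the filter. The panel lists Ptgdr2 and Gpr44, an older name for the same receptor, as separate rows.

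In the remaining lists no gene passed in limma except Il34 among the interleukins. edgeR and DESeq2 also called Ccl3 and Chil3, given above, and DESeq2 called Casp8. Endothelial and stromal genes had the lowest median, −0.07 over 21 genes, against 0.19 over all genes. None was called (limma), against 2.33% of all genes, and 1 had an unadjusted p under 0.05, against 19.3%. Nt5e, the ecto-enzyme CD73, had 1679 and 537 normalized counts in ENT+CTLA4+HER2, against 1184, 1829, 1837 and 1647 in ENT+CTLA4, low in replicate 2 alone. Medians were 0.11 over 21 complement genes, 0.14 over 8 B cell genes, 0.13 over 30 genes of growth factor receptor signalling and 0.14 over 17 genes of the cell cycle and apoptosis. They were 0.21 over 24 Toll-like receptor genes, 0.21 over 17 genes of suppressive myeloid cells, 0.20 over 21 genes of the TNF superfamily and 0.12 over 28 interleukins and receptors. Chemokines (28 tested), chemokine receptors (14) and dendritic cell genes (17) had medians of 0.39, 0.38 and 0.47 with no call by limma, and 5, 4 and 2 genes at an unadjusted p under 0.05, against 19.3% of all genes.

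None of the members of these lists named next passed in limma. Among complement genes, Cfi (complement factor I) had a log2 change of 1.05 ± 0.35 (adjusted p = 0.103) and Cd59b, an inhibitor of the membrane attack complex, 0.93 ± 0.37 (adjusted p = 0.172). Among cell death genes, Bcl10 and Casp1 (caspase 1) had log2 changes of 0.52 and 0.33, while Casp8, the initiator caspase of death receptors, had −0.43. Among Toll-like receptor genes, Tlr4, its partner Ly96 and the adaptor Ticam1 had log2 changes of 0.50 to 0.51, and Irf3, a factor downstream of them, had −0.32. Ccr8, a chemokine receptor of regulatory T cells, had 1.16 ± 0.39 (adjusted p = 0.103) and Il15ra, which presents interleukin 15 to NK and T cells, 1.23 ± 0.57 (adjusted p = 0.246). Xcr1, a marker of cross-presenting dendritic cells, had a log2 change of 0.97. Cd207, a marker of Langerhans-type dendritic cells, had 11.9 and 37.4 normalized counts in ENT+CTLA4+HER2, against 11.3, 7.29, 14.6 and 10.1 in ENT+CTLA4, high in replicate 2 alone. Cd40lg, the T cell ligand of CD40, had 37.4 and 14.2 in ENT+CTLA4+HER2, against 8.21, 10.4, 8.21 and 11.7 in ENT+CTLA4, with replicate 1 well above replicate 2. The kinase Mapk8 and its target Atf2 had log2 changes of 0.47 and 0.37, and Hras had 28.9 and 14.2 in ENT+CTLA4+HER2, against 12.3, 13.5, 7.30 and 9.32 in ENT+CTLA4. Blnk, Prdm1, Cd22 and Ms4a1 of the B cell list had −0.41 to 0.52, and Fn1, Fap and Vegfc of the stromal list −0.67 to 0.52.

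**Figure D4:**
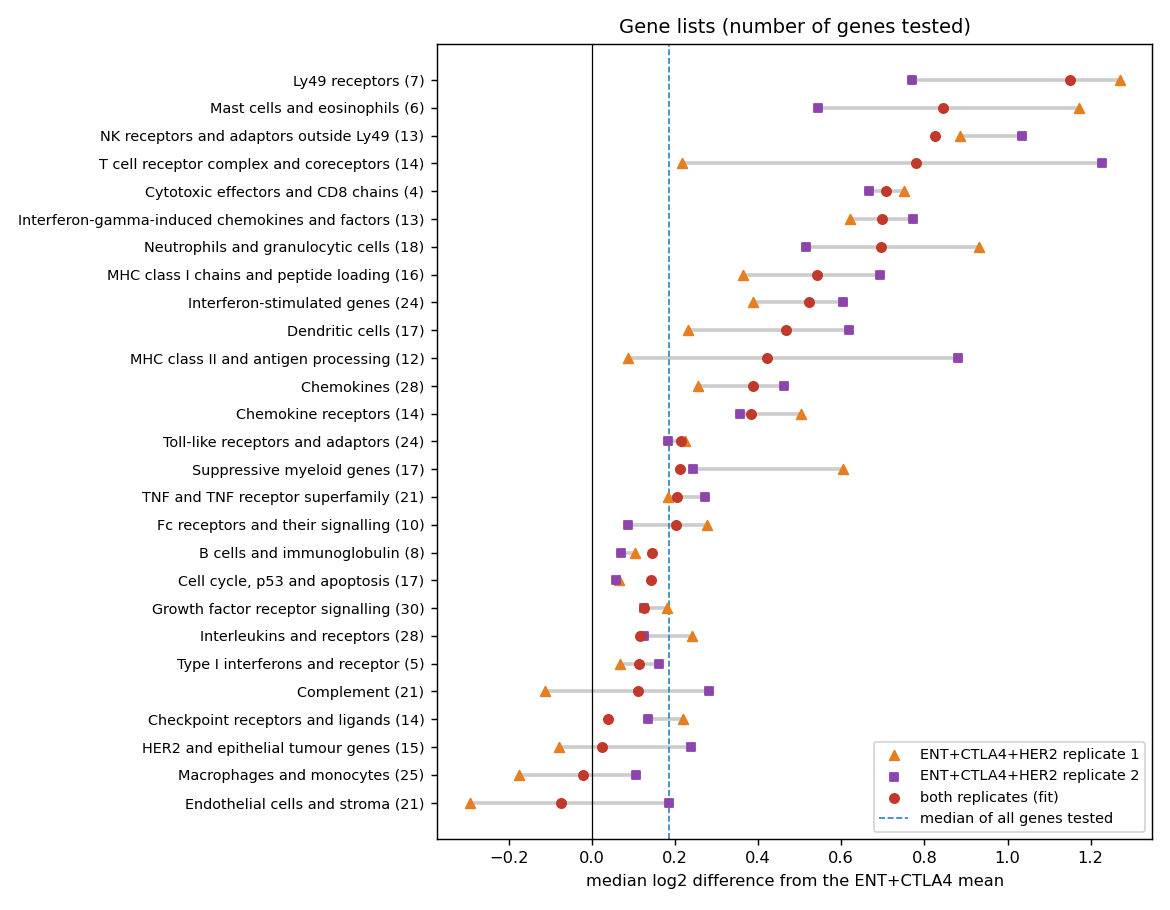
Median log2 difference from the ENT+CTLA4 mean for 27 gene lists, with the number of genes tested in brackets. Triangles and squares are ENT+CTLA4+HER2 replicates 1 and 2, red points the fit over both, and the dashed line the median of all genes at 0.19. T cell and MHC class II medians are larger in replicate 2. The Ly49, NK, MHC class I, interferon-stimulated and interferon gamma medians lie above the dashed line in both tumours. So do those of the cytotoxic, T cell, neutrophil, suppressive myeloid, dendritic cell, mast cell, chemokine and chemokine receptor lists. The type I interferon and receptor median lies below it in both, as do those of the B cell, macrophage, growth factor receptor and cell cycle lists.

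Anti-HER2 and anti-PD-1 as the antibody added to entinostat and anti-CTLA-4 were then compared directly. Between ENT+CTLA4+HER2 and ENT+PD1+CTLA4, 19 of 601 genes (3.16%) passed, 14 higher and 5 lower with anti-HER2. The split was 6 higher and 5 lower with the negative control mean subtracted, 4 and 9 scaled to the total endogenous count, 2 and 120 scaled to the positive controls, 8 and 1 in edgeR and 14 and 11 in DESeq2. Of the 19 genes, 16 kept their direction under positive control scaling, where the median of all genes was −0.74, and all 19 under the other settings named here. This test and the one above share the ENT+CTLA4+HER2 tumours, so their calls are not independent. Klra2 had 119 and 146 normalized counts in ENT+CTLA4+HER2, against 41.1, 27.3, 32.5 and 42.2 in ENT+PD1+CTLA4, a log2 change of 1.87 ± 0.38 (adjusted p = 0.0216). Sh2d1b1 had 37.4 and 36.1 in ENT+CTLA4+HER2, against 14.1, 7.05, 10.6 and 11.9 in ENT+PD1+CTLA4, a log2 change of 1.70 ± 0.35 (adjusted p = 0.0216). A2m had 47.6 and 90.4 in ENT+CTLA4+HER2, against 5.41, 14.1, 8.93 and 10.8 in ENT+PD1+CTLA4, a log2 change of 2.69 ± 0.53 (adjusted p = 0.0216). In each of these the tumours with anti-HER2 stood above all 4 with anti-PD-1. Ctsw had 52.7 and 50.4 in ENT+CTLA4+HER2, against 137, 110.2, 150.2 and 102 in ENT+PD1+CTLA4, a log2 change of −1.24 ± 0.27 (adjusted p = 0.0232). Nos2 had 45.9 and 37.4 in ENT+CTLA4+HER2, against 20.6, 14.99, 21.1 and 16.2 in ENT+PD1+CTLA4, a log2 change of 1.16 ± 0.26 (adjusted p = 0.0323). Bcl6 passed here at a log2 change of 0.88 ± 0.19 (adjusted p = 0.0232) and Ccl3 at 1.28 ± 0.34 (adjusted p = 0.0447). Notch1, a receptor of cell fate decisions, had 173 and 124 in ENT+CTLA4+HER2, against 227, 297, 247 and 225 in ENT+PD1+CTLA4, a log2 change of −0.75 ± 0.19 (adjusted p = 0.0418).

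Cd160, Klrb1 and Tgfb2 were also higher in ENT+CTLA4+HER2 than in ENT+PD1+CTLA4, with log2 changes of 1.38 ± 0.37, 1.28 ± 0.32 and 0.93 ± 0.22 (adjusted p = 0.0448, 0.0418 and 0.037). Il34, St6gal1 and Itgb3 were also lower, with log2 changes of −0.69 ± 0.18, −0.69 ± 0.16 and −0.46 ± 0.12 (adjusted p = 0.0418, 0.037 and 0.0418). Psmb9, Csf3, Ifna4, Itgb4 and Mavs, called against ENT+CTLA4, missed the threshold here. Psmb9 had 119 and 125 in ENT+CTLA4+HER2, against 83.3, 44.96, 51.97 and 47.6 in ENT+PD1+CTLA4 (log2 change 1.13 ± 0.31, adjusted p = 0.0549). Ifna4 had 32.3 and 20.7 in ENT+CTLA4+HER2, against 10.8, 11.5, 5.68 and 9.73 in ENT+PD1+CTLA4 (adjusted p = 0.145). Csf3, Itgb4 and Mavs had log2 changes of 1.10 ± 0.32, −0.84 ± 0.26 and −0.52 ± 0.16 (adjusted p = 0.065, 0.0691 and 0.0691). The other genes called were S100a8, Lif, Ceacam1, Tgfbr1 and Cd3eap, all higher with anti-HER2. With the negative control mean subtracted, these genes and A2m, Cd160 and Ccl3 no longer passed (limma). Cd160 was above background in 1 of the 4 ENT+PD1+CTLA4 tumours, A2m in 2 and Klrb1 in 0. S100a8 overlapped between the arms, with 11838 and 1607 in ENT+CTLA4+HER2, against 2776, 578, 328 and 629 in ENT+PD1+CTLA4. No gene passed without ENT+PD1+CTLA4 replicate 5, 5 passed without replicate 6 and 35 without replicate 1. Without ENT+CTLA4+HER2 replicate 2, 8 passed.

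The number of genes that passed against ENT+CTLA4 changed with the scaling, as it did with the samples in the fit. The direction of the 14 did not change. All 14 kept their sign under every other scaling and in edgeR and DESeq2. No gene passed when samples were rescaled to a common median or quantile normalized, where the median size of the 14 changes was 1.16 and 0.97 log2 units, against 1.25 as deposited. With the negative control mean subtracted, 4 passed, with Cd160 higher and Ctsw, Il34 and Mavs lower, and Itgb4, St6gal1 and Itgb3 were among those that did not (adjusted p = 0.0643, 0.0598 and 0.0533, limma). Scaled to the positive control probes, which leaves the difference in input in the values, the median of all genes was −0.65 and 66 passed, 2 higher and 64 lower. A2m and Cd160 were the 2 higher genes. edgeR on the recovered counts called 16 genes and DESeq2 called 21, of which 7 and 9 were among the 14. Ctsw, Mavs, Il34 and Cd160 each passed in 6 of the 8 settings in the map of changes by setting.

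**Figure D5:**
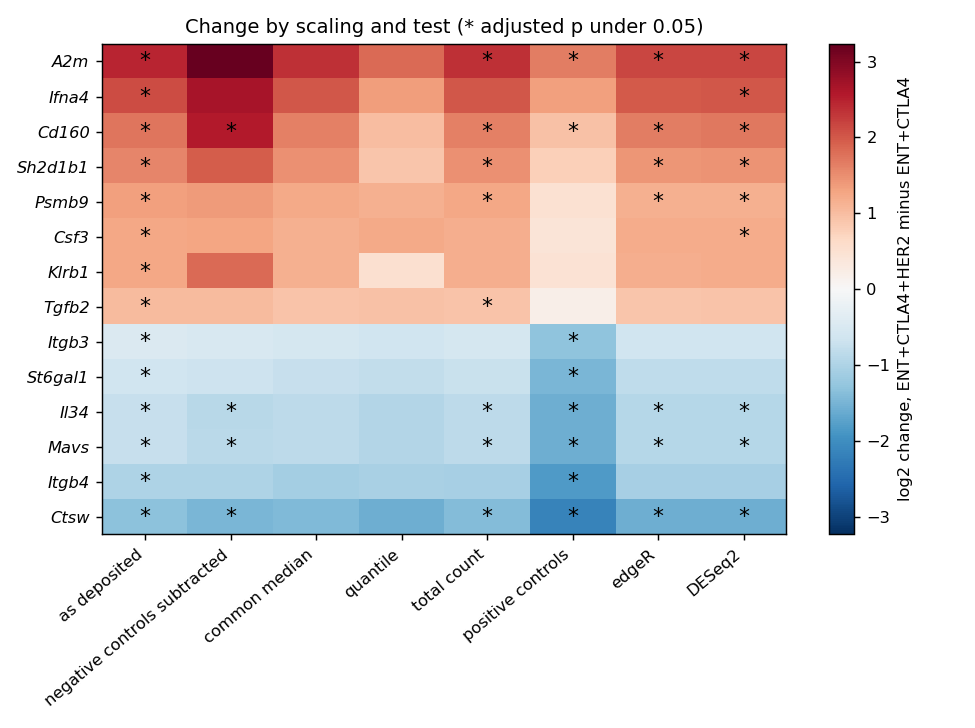
Log2 change (colour, red higher and blue lower with anti-HER2) of the 14 genes, 1 per row, under 8 scalings and tests, 1 per column. Asterisks mark an adjusted p under 0.05. No column changes the sign of a gene, and the common median and quantile columns hold no asterisk.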

How the data were processed

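RNA from tumours of neu-N mice was counted on an nCounter panel. The authors' deposited signal was taken to be normalized and linear, since the housekeeping geometric mean was 346.9 in every sample. The authors' factor was recovered per sample, which returned whole counts for 100% of the deposited values above 1 (tolerance 0.05). A further 82 values stood at exactly 1. Limma is named in the submitters' processing notes. How the values were normalized, and with what, is not given in the sources used here. A PanCancer Immune panel is named by the series title and a myeloid panel by the labels' protocol.

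Endogenous genes with a value of 20 or more in at least 4 samples were tested on log2(value + 1). The added 1 shrinks the change of weak genes. The authors' scaling acts the other way here, as it left the negative controls 0.63 log2 units higher in ENT+CTLA4+HER2 than in ENT+CTLA4. Changes of weak genes are therefore not lower bounds. One limma 3.58.1 fit (lmFit, eBayes with trend, R 4.3.3) covered 22 samples in 6 groups taken from the titles, and 2 samples whose titles repeat others were left out. Benjamini-Hochberg adjustment ran over all 601 genes. Since the protocol mentions anti-HER2 in all neu-N studies, the titles alone decided which tumours received it. edgeR 4.0.16 and DESeq2 1.42.0 on recovered counts, scalings, filters, pseudocounts and left-out samples were alternatives, and the fits were tested on simulated data. Standard errors come from the spread between samples, and each sample's background level from its negative control probes.

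Genes were named by rule: every called gene, the 5 uncalled genes with the smallest unadjusted p, up to 4 members of each list, all members of lists of at most 15 measured genes, and a set of 25 genes with known roles, of which B2m was not analysed here. Further genes named beside them (Psmb10, Psmb7, H2-D1, Tapbp, Isg20, Cd3e, Klrc1, Klrk1, Lag3, Cd68, Mrc1, Fpr2, Ppbp, Notch1, Lif and Tgfbr1) were chosen after their values were seen. The comparison, the gene lists and their members were chosen with earlier results of these data known. Promoters came from RefSeq on GRCm38.p6.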

Additional observations from a re-analysis of the deposited data

Results flagged for a closer look

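Of 163 sets of 4 tumours checked, over the genes named and the ENT+CTLA4 and ENT+PD1+CTLA4 arms, 5 (3.07%) held a tumour apart from the other 3 by Dixon's criterion, where chance gives about 1 in 20. In ENT+CTLA4, Csf3 stood at 137.5 normalized counts in replicate 1, against 79.4 to 82.3 in the others. Psmb9 stood at 36.5 in ENT+CTLA4 replicate 2, the lowest, against 52.0 to 54.4. Gzma stood at 21.6 in ENT+CTLA4 replicate 1, against 14.6 to 15.5. Ctla4 stood at 30.3 in ENT+CTLA4 replicate 6, against 17.4 to 18.8. Cd160 stood at 4.87 in ENT+PD1+CTLA4 replicate 5, against 9.73 to 10.6 in the others. In Csf3, Psmb9 and Cd160 this tumour is part of a comparison that passed the test.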

How the results depend on the processing

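Against ENT+CTLA4 (14 genes as reported), the number of genes called was 6 with a filter of 50, 22 with values below 20 raised to 20, 4 with the negative control mean subtracted and 66 scaled to positive controls. It was 0 at a common median, 0 under quantile normalization and 9 without the trend. It was also 0 in the 10 samples of the cartridge and 0 in the 6 samples of the compared groups. Those fits hold fewer samples and also leave out the other cartridge, and these were not told apart. Leaving out single samples gave 0 to 23. The counts at an unadjusted p under 0.05 were 116 as reported, 86 and 76 in the rescaled fits, 90 and 104 in the fits on 10 and 6 samples, and 96 and 103 without ENT+CTLA4 replicates 5 and 6. Against ENT+PD1+CTLA4 (19 genes), the number was 12 with a filter of 50, 11 with controls subtracted, 8 at a common median, 3 under quantile normalization, 122 scaled to positive controls, 9 in edgeR, 12 without the trend, and 0 in the fits on 10 and on 6 samples, where 98 and 70 genes had an unadjusted p under 0.05. Leaving out single samples gave 0 to 35, and 101 genes had an unadjusted p under 0.05 in the fit with none called. The cause of these moves was not tested.

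With the replicate number as a block, 0 genes were called in either comparison, and 119 and 122 had an unadjusted p under 0.05. With 2 ENT+CTLA4+HER2 tumours, their deviations from the group mean are mirror images, so correlations cannot decide whether the numbers paired samples. The correlations were −0.256 for number 1 and −0.328 for number 2. The crossed pairing was not run, since ENT+CTLA4 holds 4 tumours.

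The 14 called genes kept their direction in 345 of 345 refits, staying past the threshold in 170. Of 3322 refits of the other named genes, 69 passed the threshold and 166 changed sign, 58 of these under positive control scaling. List medians moved beyond the spread between ENT+CTLA4 tumours in 68 of 675 refits. Weak genes were limited by depth: Klrb1 was at background in all ENT+CTLA4 tumours.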
